A study of Homo sapiens with 4 samples.

Results

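S100 proteins and annexins are a pair of calcium-responsive protein families, and their genes were followed here in a human cell line at 30 Gy and at 0 Gy (gray measures absorbed radiation). The members are the protein-coding genes of the deposited table whose name begins with S100 and a letter, or with ANXA and a digit: 36 of 58735 genes. Of these, 21 encode S100 proteins and 13 encode annexins. The other 2 match the name pattern alone: S100PBP encodes a protein that binds S100P, and ANXA2R a receptor for annexin A2. The libraries were 2 at 30 Gy and 2 at 0 Gy, with doses as the labels give them, and the labels call the material human lung squamous carcinoma cells. SK-MES-1, a line from such a tumour, and its radioresistant derivative SK-MES-1-RR are both named in the design text, but the labels tie no library to either, nor do they give the fractionation or the time after irradiation. Nothing says that replicates were separate cultures, so a p-value reflects only how far these libraries scatter, which may be technical.

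S100 proteins are small EF-hand proteins that pair up as dimers and, on binding calcium, dock onto target proteins; some are secreted and act on receptors such as RAGE and TLR4. Annexins bind acidic phospholipids when calcium rises, and work at membranes in traffic, repair and attachment of actin. The families meet directly, since several S100 dimers bridge annexins: S100A10, which no longer needs calcium, with annexin A2, and S100A11 with annexin A1. Stratified epithelium is known for both, and most S100 genes lie together on chromosome 1 beside genes of the cornified envelope.

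At 30 Gy, S100A16, S100A10 and S100A11 were higher than at 0 Gy, as were the annexin genes ANXA6, ANXA8 and ANXA8L1. The largest ratios of mean FPKM (fragment counts scaled to gene length and library size) among these were 3.27 for ANXA8, 2.91 for ANXA8L1 and 2.59 for S100A16. The abundant members S100A6, ANXA1, ANXA2 and ANXA5 did not pass the test, while S100A11, abundant as well, did. Genes with at least 1 FPKM in at least 2 libraries were tested with limma on log2(FPKM + 1), and a gene is called at a Benjamini-Hochberg adjusted p under 0.05 over all 13379 tested genes. Of the 36 members 22 were tested. Of these 6 were called, all of them higher, where 19.8% of all tested genes were called and 10.8% were called higher. The 6 include ANXA8L1, which passed the filter only through the 30 Gy libraries, where it was higher, so its call supports nothing here. limma called 0 members lower, against 9.06% of all tested genes, with 1 lower at an unadjusted p under 0.05. voom on reads recovered from the FPKM called 7 members higher, the same 6 and ANXA2, and 1 lower, ANXA1, where it called 31.2% of all tested genes, 16% higher and 15.2% lower. The median log2 change was 0.14 over the 22 tested members and -0.00068 over all tested genes. In 13 of the 22 the 2 groups did not overlap, near the 65.2% of all tested genes: 8 were higher at 30 Gy (32.9% of all tested genes) and 5 lower (32.3%). Without either 0 Gy library that group is a lone library and limma called 0 of the 13379 genes (3422 and 3460 at an unadjusted p under 0.05), so no call below survives those omissions.

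The plot of FPKM by library gives each tested member, and the plot of changes gives the same genes as log2 differences.

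**Figure D1:**
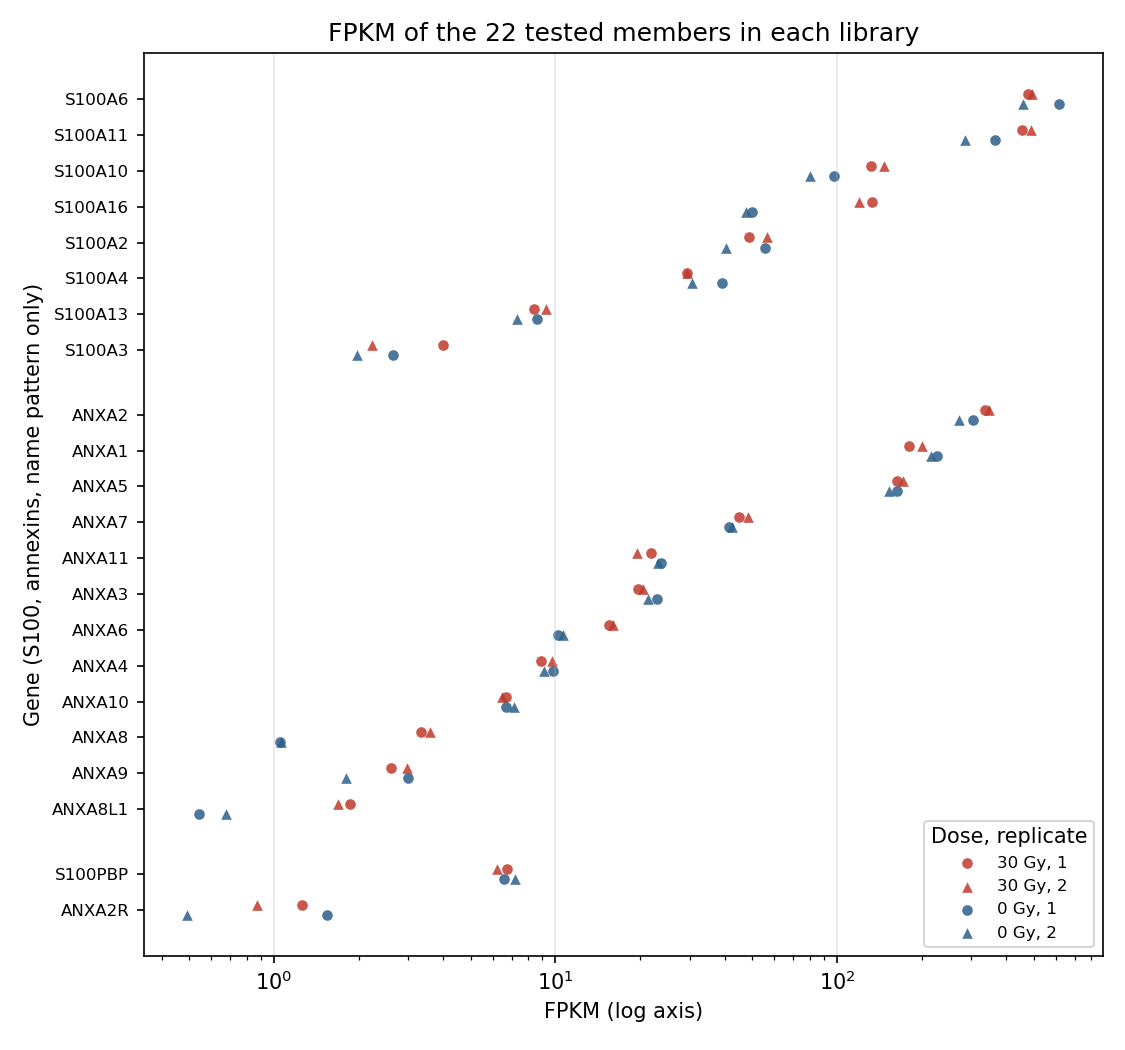
FPKM (log axis) of the 22 tested members in each library, with S100 genes above, annexins in the middle and the 2 genes of the name pattern alone at the bottom; red marks are 30 Gy libraries, blue marks 0 Gy libraries, circles replicate 1 and triangles replicate 2. The red marks of S100A16, ANXA8 and ANXA8L1 stand well to the right of the blue ones, while the first 0 Gy library of S100A6, at 615 FPKM, stands to the right of the other 3.

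**Figure D2:**
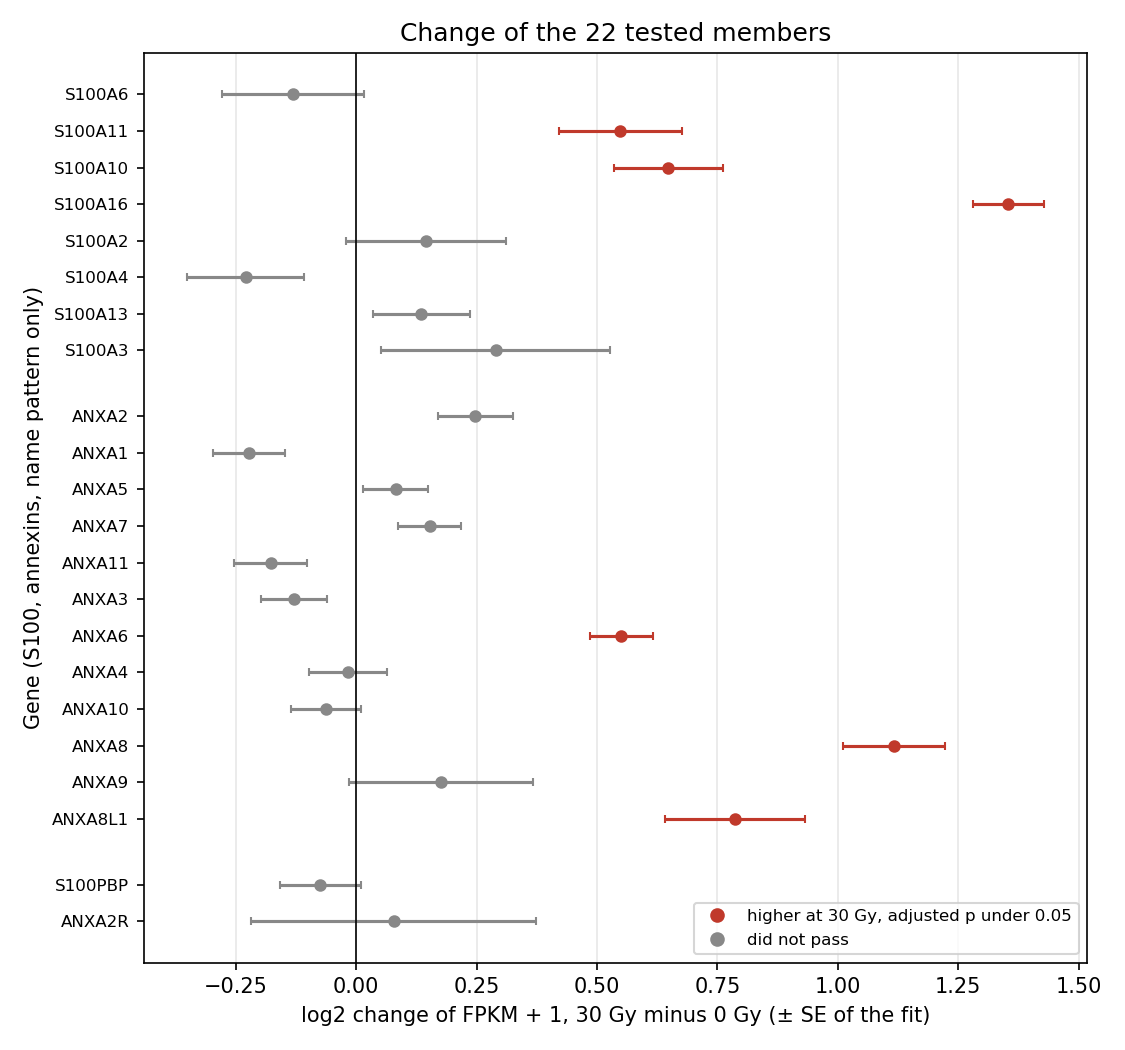
Change of the 22 tested members on the log2(FPKM + 1) scale, 30 Gy minus 0 Gy, with the standard error of the fit; red points passed at an adjusted p under 0.05 and grey points did not. The red points run from 0.55 to 1.35, and the grey points from -0.23 to 0.29.

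S100A16 changed most among the S100 genes. It encodes an S100 protein found in many tissues, and lies at chr1:153606886-153613145 (hg38, minus strand). S100A16 had 133 and 120.4 FPKM in the 30 Gy libraries, against 50.1 and 47.8 FPKM in the 0 Gy libraries. Both 30 Gy libraries were far above both 0 Gy libraries. The log2 change was 1.35 ± 0.07 (SE; limma adjusted p = 0.00179), and S100A16 stood 215th by mean FPKM among tested genes at 30 Gy, against 743rd at 0 Gy. It kept its call when the first 30 Gy library was dropped (adjusted p = 0.0202) or the second (0.0191), and missed it when the first 0 Gy library was dropped (0.0757) or the second (0.0738).

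S100A10 and S100A11 lie next to each other at the low-coordinate end of the cluster. S100A10 is p11, the partner of annexin A2 on the inner face of the plasma membrane, where the pair helps to gather plasminogen at the cell surface. S100A10 (chr1:151982915-151994390, minus strand) had 132 and 147 FPKM in the 30 Gy libraries, against 97.4 and 80.3 FPKM in the 0 Gy libraries. The groups did not overlap, and the log2 change was 0.65 ± 0.11 (SE; limma adjusted p = 0.0225). S100A11, also called calgizzarin, binds annexin A1 and takes part in growth control of keratinocytes. S100A11 (chr1:152032506-152047907, minus strand) had 455 and 491 FPKM in the 30 Gy libraries, against 364 and 286 FPKM in the 0 Gy libraries. Its groups did not overlap either, and the log2 change was 0.55 ± 0.13 (SE; limma adjusted p = 0.0440), close to the threshold. Dropping any 1 library ended both calls. For S100A10 the adjusted p became 0.0667 and 0.0891 with a 30 Gy library dropped (replicate 1, then 2) and 0.0847 and 0.114 with a 0 Gy library dropped. For S100A11 it became 0.115 and 0.149 with a 30 Gy library dropped and 0.0847 and 0.130 with a 0 Gy library dropped. A test with no FPKM minimum ended both (0.112 for S100A10, 0.192 for S100A11), and a fit with no mean-variance trend ended that of S100A11 (0.0694).

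The promoter windows of these 3 S100 genes are printed since they are the cluster members that rose. Each runs from 250 bases before to 50 bases after a RefSeq start site (GRCh38.p14), and capitals mark the letters of searched motifs. The motifs were AP-1 (TGANTCA), TEAD (GGAATG) and the antioxidant response element (TGACNNNGC), each on both strands, and no 2 of the matches shown overlap. The S100A16 window is chr1:153613088-153613387, the S100A10 window chr1:151993810-151994109 and the S100A11 window chr1:152036955-152037254, all on the minus strand.
S100A16: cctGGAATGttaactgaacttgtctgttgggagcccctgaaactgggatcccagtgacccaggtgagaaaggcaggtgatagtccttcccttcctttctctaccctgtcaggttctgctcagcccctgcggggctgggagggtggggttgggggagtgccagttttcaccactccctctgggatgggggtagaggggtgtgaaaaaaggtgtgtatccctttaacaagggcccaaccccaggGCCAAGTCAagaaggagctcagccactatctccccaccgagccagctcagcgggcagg
S100A10: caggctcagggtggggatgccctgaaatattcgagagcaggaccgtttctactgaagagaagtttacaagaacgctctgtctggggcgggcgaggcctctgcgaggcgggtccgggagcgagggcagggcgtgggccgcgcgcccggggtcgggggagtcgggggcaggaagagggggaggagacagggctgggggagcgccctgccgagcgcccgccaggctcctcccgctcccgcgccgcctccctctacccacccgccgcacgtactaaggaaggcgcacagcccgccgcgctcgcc
S100A11: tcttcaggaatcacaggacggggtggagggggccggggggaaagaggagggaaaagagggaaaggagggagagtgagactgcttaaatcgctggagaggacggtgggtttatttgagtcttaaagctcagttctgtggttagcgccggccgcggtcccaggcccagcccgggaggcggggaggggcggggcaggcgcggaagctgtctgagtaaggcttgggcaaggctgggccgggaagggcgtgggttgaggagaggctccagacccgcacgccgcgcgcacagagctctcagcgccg
In the S100A16 window the TEAD letters stand near the far end and the letters of the antioxidant response element run up to and across the start site. The letters of the 3 motifs are not in the S100A10 and S100A11 windows. A second S100A16 window (chr1:153609306-153609605) also holds the TEAD letters. RefSeq windows were at hand for 32 of the 36 members, 46 windows in all, of which 6 held the AP-1 letters, 3 the TEAD letters and 5 those of the antioxidant response element. Over all 34943 windows the shares were 7.72%, 14% and 13.3%. A match describes the letters and does not show that a factor binds there.

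Of the 8 tested S100 genes, the other 5 did not pass. S100A6, calcyclin, a partner of the ubiquitin-ligase adaptor CACYBP, was the most abundant S100 gene by FPKM in both groups. It had 476 and 493 FPKM in the 30 Gy libraries, against 615 and 458 FPKM in the 0 Gy libraries, and the 0 Gy libraries lay on either side of the 30 Gy ones (log2 change -0.13 ± 0.15, SE). S100A2, known from basal keratinocytes, had 48.8 and 56.4 FPKM in the 30 Gy libraries, against 55.6 and 40.4 FPKM in the 0 Gy libraries, again overlapping. S100A4, which binds non-muscle myosin and is widely used as a marker of motile mesenchymal cells, had 29.4 FPKM in each 30 Gy library, against 39.1 and 30.6 FPKM in the 0 Gy libraries. The groups did not overlap, and the log2 change of -0.23 ± 0.12 (SE) did not pass (limma adjusted p = 0.239). S100A13, which takes part in the release of FGF1, had 8.37 and 9.28 FPKM in the 30 Gy libraries, against 8.58 and 7.33 FPKM in the 0 Gy libraries. S100A3, best known from the hair cuticle, had 4.001 and 2.24 FPKM in the 30 Gy libraries, against 2.65 and 1.97 FPKM in the 0 Gy libraries. S100A3 lies inside S100A4 on the same strand, and S100A13 overlaps S100A1 on the opposite strand. How reads were split there is not given in the sources used here, so these values are uncertain.

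The make-up of the S100 transcripts differed between the groups. Their summed FPKM was 1287 and 1349 in the 30 Gy libraries, against 1234 and 952 in the 0 Gy libraries. S100A6 made up 37.0% and 36.5% of that sum in the 30 Gy libraries, against 49.9% and 48.1% in the 0 Gy libraries. S100A16 made up 10.4% and 8.92% in the 30 Gy libraries, against 4.06% and 5.02% in the 0 Gy libraries. S100A11 made up 35.3% and 36.4% in the 30 Gy libraries, against 29.5% and 29.999% in the 0 Gy libraries. In each of these shares the groups did not overlap, though the FPKM of S100A6 itself did. The shares are parts of the same sum and rest on the FPKM values behind the calls above, so they are no separate result. S100A10 made up 10.2% and 10.9% in the 30 Gy libraries, against 7.90% and 8.43% in the 0 Gy libraries. The stacked bars of S100 transcripts show this by library.

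**Figure D3:**
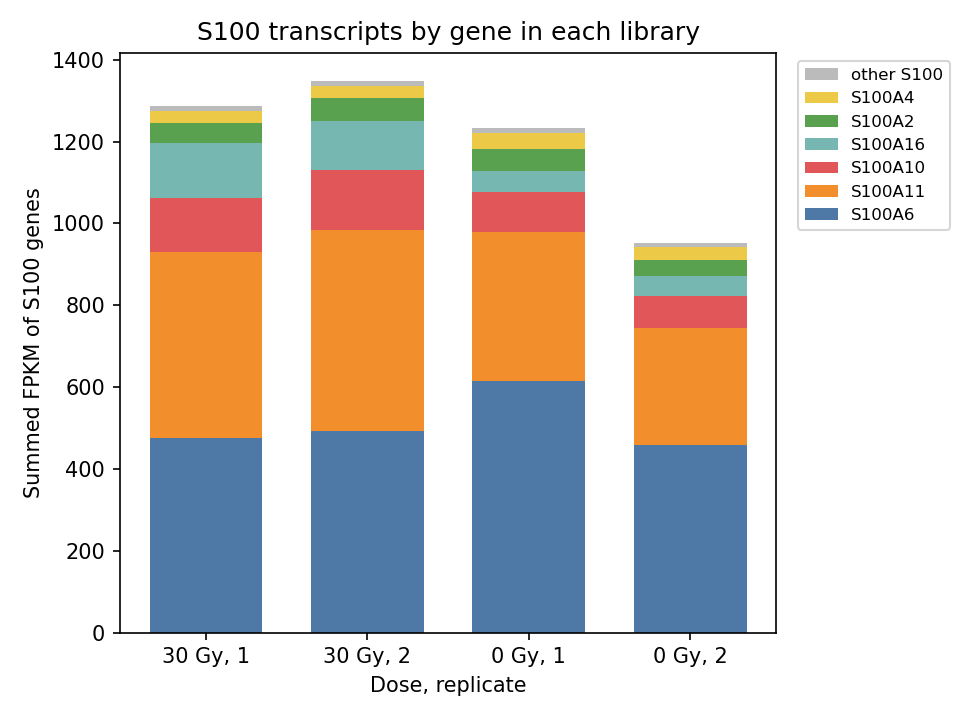
Summed FPKM of the S100 genes in each library, stacked by gene, 30 Gy libraries on the left and 0 Gy libraries on the right. The S100A16, S100A10 and S100A11 segments are taller in both 30 Gy libraries, and the second 0 Gy library has the lowest sum, 952 FPKM.

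Much of the spread in this family came from the 0 Gy pair. All 8 tested S100 genes had more FPKM in the first than in the second 0 Gy library, which held for 47.9% of all tested genes. The median log2 difference between those libraries was 0.32 over the 8 S100 genes, 0.05 over the 12 tested annexins and -0.0077 over all tested genes. Between the 30 Gy libraries, first minus second, the median was -0.080 over the S100 genes and -0.0035 over all tested genes. Gene length moved with the 0 Gy difference, though not evenly. Over the 1484 tested genes of up to 1000 bases, among them S100A6, S100A11 and S100A3, the median was 0.037 and 52.0% were higher in the first library. Over the 1150 genes of 1001 to 2000 bases it was 0.086 and 67.0%, and over the 1321 genes longer than 10000 bases -0.059 and 26.7%. The part of gene length in the S100 difference was not tested. With each library's trend on gene length removed, an alternative added after the data were seen, the same 6 members passed. They include ANXA8L1, which passed the filter only through the 30 Gy libraries, so its call supports nothing here.

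Of the 21 S100 genes, 13 were below the filter. S100A1, known from heart muscle, had 12 and 14 reads in the 30 Gy libraries, against 21 and 9 reads in the 0 Gy libraries. S100A5 (1 to 2 reads per library), S100A14 (1 to 4), S100Z (0 to 5), S100P (0 to 3), S100G (0 to 2), S100A9 and S100B (0 to 1 each) were at trace level. S100A14 is an epithelial member, S100P was first found in placenta, S100G is the calcium-binding protein of gut epithelium, and S100B is used as a marker of glia and melanocytes. S100A7, S100A7A, S100A7L2, S100A8 and S100A12 had 0 reads in all 4 libraries. S100A7, psoriasin, and S100A8, which pairs with S100A9 as calprotectin, are induced in inflamed epidermis, and S100A8, S100A9 and S100A12 are also granulocyte proteins. At these depths 3 reads were taken as an approximate upper limit for a count of 0. For S100A8 they would equal 0.187 FPKM in the first 30 Gy library and 0.171 FPKM in the first 0 Gy library. No difference was thus detectable for the genes at 0. These limits cover counting error only. None of 8 myeloid markers was tested. LYZ, MPO, CD163 and FCGR3A were at 0 reads throughout, while the highest value of that list in any library was 0.961 FPKM, just under the filter. None of 6 neural crest and melanocyte markers was tested either. SOX10, a neural crest factor, had 0 to 4 reads per library, while the highest value of that list in any library was 0.989 FPKM.

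ANXA6 was the annexin above 5 FPKM that rose. Annexin A6 carries a duplicated annexin core and works in endosomal and cholesterol traffic and in membrane repair. ANXA6 (chr5:151100712-151157882, minus strand) had 15.5 and 16.1 FPKM in the 30 Gy libraries, against 10.3 and 10.7 FPKM in the 0 Gy libraries. Replicates lay close together and the groups were far apart, with a log2 change of 0.55 ± 0.065 (SE; limma adjusted p = 0.00923). The call held with 30 Gy replicate 1 dropped (adjusted p = 0.0456) and just missed with replicate 2 dropped (0.0508). With 0 Gy replicate 1 or 2 dropped the adjusted p was 0.0997 or 0.0950.

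ANXA8 and ANXA8L1 rose together from low levels. Annexin A8 is an epithelial annexin tied to late endosomes, and ANXA8L1 is a near-identical copy on the same chromosome. ANXA8 (chr10:47460162-47484158, minus strand) had 3.34 and 3.58 FPKM in the 30 Gy libraries, against 1.06 FPKM in each 0 Gy library. ANXA8L1 (chr10:46375627-46391784, plus strand) had 1.86 and 1.69 FPKM in the 30 Gy libraries, against 0.542 and 0.679 FPKM in the 0 Gy libraries. In both genes each 30 Gy library was above each 0 Gy library. ANXA8L1 passed the filter only through the 30 Gy libraries, where it was higher, so its call supports nothing here. The log2 changes were 1.12 ± 0.11 for ANXA8 and 0.79 ± 0.15 for ANXA8L1 (SE; limma adjusted p = 0.00595 and 0.0251). The pseudocount of 1 understates such low genes, and voom on the reads gave 1.70 and 1.53. ANXA8 kept its call with 30 Gy replicate 1 dropped (adjusted p = 0.0389) or replicate 2 dropped (0.0397), and missed it with 0 Gy replicate 1 (0.0847) or 2 (0.0852) dropped. Dropping any 1 library ended the call on ANXA8L1 (adjusted p = 0.0976 and 0.0806 for the 30 Gy replicates, 0.125 and 0.111 for the 0 Gy replicates), as did a test with no FPKM minimum (0.0962).

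The split of reads between these copies is uncertain. The coding sequences of 1 GENCODE 29 transcript of each, both of 1098 bases, differ at 5 positions (T16G, C390T, A642G, G644C and T1053C, with the ANXA8 base first and positions counted from 1 at the start codon), an identity of 99.5%. The stretch from coding position 352 to 426, inside 1 exon in each gene, is printed with its difference in capitals to show how little a read has to go by. It lies at chr10:47477090-47477164 (minus strand) in ANXA8 and chr10:46382609-46382683 (plus strand) in ANXA8L1.
ANXA8: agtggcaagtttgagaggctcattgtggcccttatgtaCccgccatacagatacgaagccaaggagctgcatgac
ANXA8L1: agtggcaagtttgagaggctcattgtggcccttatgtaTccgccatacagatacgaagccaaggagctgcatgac
Of all 75-base stretches in the annotated transcripts, 62.8% of those of ANXA8 and 75.02% of those of ANXA8L1 also occur in another annotated gene. Summed over both copies, the recovered reads were 349 and 359 in the 30 Gy libraries, against 118 and 122 in the 0 Gy libraries. ANXA8L1 took 24.4% and 21.4% of that sum in the 30 Gy libraries, against 22.9% and 27.0% in the 0 Gy libraries. The summed reads were thus higher in both 30 Gy libraries, however they were divided between the copies. Of the ANXA8 stretches 42.5% occur in ANXA8L1, so some of the shared ones occur only in further annotated genes. Reads given to those genes are outside this sum.

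The abundant annexins did not pass. ANXA2, the partner of S100A10, had 335 and 349 FPKM in the 30 Gy libraries, against 305 and 272 FPKM in the 0 Gy libraries. The groups did not overlap, and the log2 change of 0.25 ± 0.08 (SE) missed the threshold (limma adjusted p = 0.0857), while voom on the reads (0.00608) and quantile normalization (0.0317) passed it. Of its 75-base stretches 4.10% also occur in another annotated gene, the processed pseudogene ANXA2P2 foremost. ANXA2P2 had 156 and 166 FPKM in the 30 Gy libraries, against 153 and 123 FPKM in the 0 Gy libraries. In reads, ANXA2P2 had 2541 and 2698 at 30 Gy, against 2721 and 2129 at 0 Gy, where ANXA2 had 47210 and 48940 at 30 Gy, against 46804 and 40767 at 0 Gy.

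ANXA1, known as an inhibitor of phospholipase A2 and a ligand of formyl peptide receptors, was the abundant annexin with the lowest change. It had 181 and 200.2 FPKM in the 30 Gy libraries, against 228 and 217 FPKM in the 0 Gy libraries. All 30 Gy values were below all 0 Gy values, with a log2 change of -0.22 ± 0.07 (SE; limma adjusted p = 0.0980), and voom on the reads called it (-0.23, adjusted p = 0.0131). ANXA5, which binds exposed phosphatidylserine, had 163 and 172 FPKM in the 30 Gy libraries, against 164 and 153 FPKM in the 0 Gy libraries, which overlap.

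The remaining annexins were of moderate or low level, and their log2 changes lay between -0.18 and 0.18. ANXA7, also called synexin and known for membrane fusion, had 44.9 and 48.5 FPKM in the 30 Gy libraries, against 41.3 and 42.5 FPKM in the 0 Gy libraries. ANXA11, which binds the calcium sensor ALG-2, had 21.8 and 19.5 FPKM in the 30 Gy libraries, against 23.6 and 23.2 FPKM in the 0 Gy libraries. Neither overlapped between groups, and neither passed (limma adjusted p = 0.166 and 0.162). ANXA3 had 19.7 and 20.5 FPKM in the 30 Gy libraries, against 22.9 and 21.3 FPKM in the 0 Gy libraries. ANXA4, an annexin of secretory epithelia, had 8.89 and 9.76 FPKM in the 30 Gy libraries, against 9.80 and 9.08 FPKM in the 0 Gy libraries. Its gene overlaps AAK1 on the opposite strand. ANXA10, known from gastric epithelium, had 6.67 and 6.45 FPKM in the 30 Gy libraries, against 6.69 and 7.11 FPKM in the 0 Gy libraries. ANXA3 and ANXA10 were lower at 30 Gy in both libraries without passing (adjusted p = 0.234 and 0.576 by limma), and ANXA4 overlapped. ANXA9 had 2.61 and 2.96 FPKM in the 30 Gy libraries, against 2.99 and 1.80 FPKM in the 0 Gy libraries. ANXA13, an annexin of gut and kidney, had 0 reads in every library. S100PBP (6.74 and 6.21 FPKM at 30 Gy, against 6.55 and 7.20 FPKM at 0 Gy) and ANXA2R (1.26 and 0.869 FPKM at 30 Gy, against 1.54 and 0.493 FPKM at 0 Gy) overlapped between groups.

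RNA ratios were taken for 2 known S100 and annexin pairs, and other pairs were left out. The ratio of S100A10 to ANXA2, both in FPKM, was 0.394 and 0.421 in the 30 Gy libraries, against 0.320 and 0.295 in the 0 Gy libraries. The ratio of S100A11 to ANXA1 was 2.51 and 2.45 in the 30 Gy libraries, against 1.60 and 1.32 in the 0 Gy libraries. In both pairs each 30 Gy ratio was above each 0 Gy ratio. S100A10 and S100A11 were themselves called higher, so these ratios are no separate result, and they do not measure protein complexes. With 2 libraries against 2, an exact permutation test cannot go below a two-sided p of 0.333, so none is given. The size of such a ratio rests on the deposited gene lengths, which span 680 bases for S100A11 and 8824 bases for ANXA2. Those lengths cancel when libraries are compared. A difference between libraries that moves with gene length, as in the 0 Gy pair, does not cancel, and its part in these ratios was not tested.

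The S100 genes of chromosome 1 did not move as a block. The cluster holds 17 S100 genes whose starts span 1.65 Mb, of which 8 were tested. The 3 that rose are split between its ends, and S100A6, S100A4, S100A3, S100A2 and S100A13, which did not pass, lie between S100A11 and S100A16 or just beyond it. Of 45 tested protein-coding neighbours within 1 Mb of the cluster or inside it, 6 rose and 4 fell, with a median log2 change of -0.05, near the 10.8% higher and 9.06% lower of all tested genes. MLLT11 (0.68), TPM3, a tropomyosin (0.47), and RFX5, a regulator of HLA class II genes (0.38), rose on the log2 scale. IL6R, the receptor of interleukin 6 (-0.89), and DENND4B (-0.34) fell. FLG (-0.70) is counted among the 4 but passed the filter only through the 0 Gy libraries. Inside the cluster itself 47 other protein-coding genes are annotated, of which 40 had 0 reads in all libraries and FLG and TCHH alone were tested. The map of changes along the cluster shows these genes in order.

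**Figure D4:**
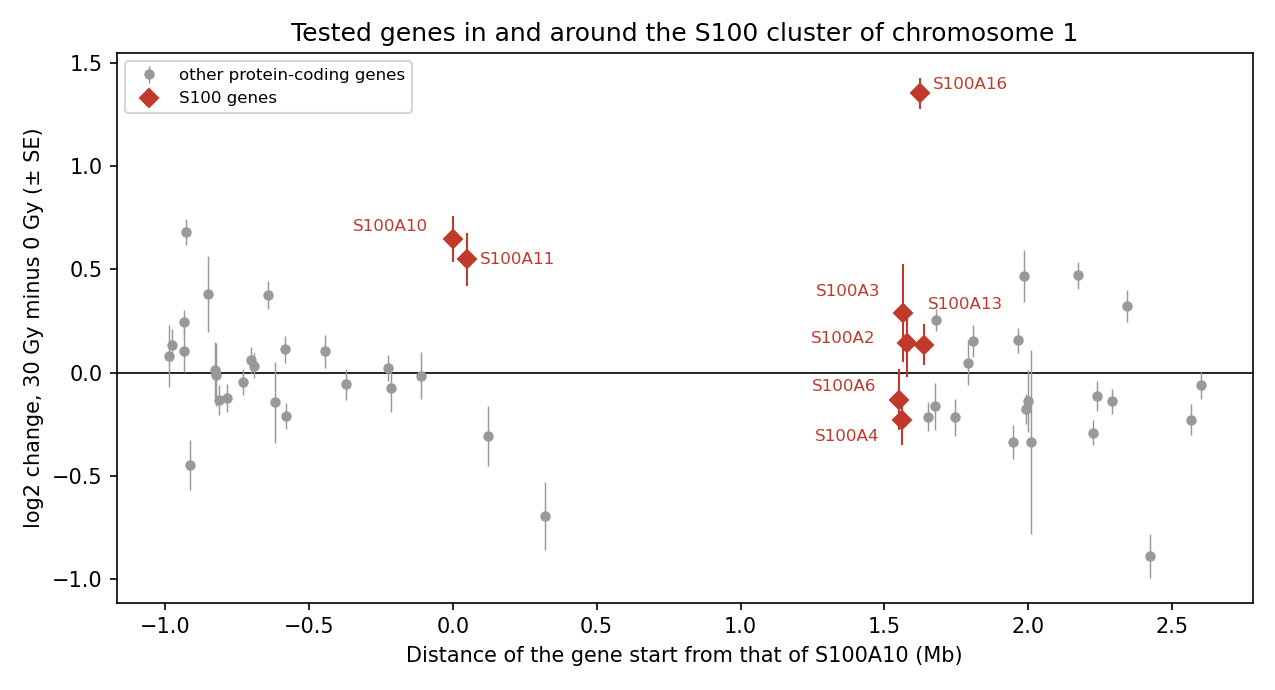
log2 change (30 Gy minus 0 Gy, with the standard error of the fit) of the tested genes in and around the S100 cluster of chromosome 1, against the distance of each gene's start from that of S100A10; red diamonds are S100 genes and grey circles other protein-coding genes. S100A16 stands apart at 1.35, S100A10 and S100A11 lie at 0.65 and 0.55, and the gap between S100A11 and S100A6 holds only TCHH and FLG among tested genes.

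Lists of related genes are described by their counts, to be read beside the 10.8% of all tested genes called higher and the 9.06% called lower. No list was tested against that share. The lists were chosen with earlier results of these data known, so a higher share in a list cannot be read as a result. Of 7 genes for S100 receptors 5 were tested. MCAM, an adhesion molecule that binds S100A8 and S100A9, rose to 21.6 ± 0.903 FPKM at 30 Gy, against 10.1 ± 0.108 at 0 Gy (SD, n = 2 each). The other 4 did not pass: they include BSG (basigin) at 113 and 111 FPKM and AGER, which encodes RAGE, at 1.04 and 1.27 FPKM (means at 30 Gy and 0 Gy). TLR4 was not tested. Of 7 fused S100 proteins, which join an S100 domain to a long repeat, FLG (filaggrin) fell to 0.347 ± 0.00262 FPKM at 30 Gy, against 1.18 ± 0.0552 at 0 Gy (SD, n = 2 each), and TCHH (trichohyalin) did not pass. FLG passed the filter only through the 0 Gy libraries, where it was higher, so its call supports nothing here.

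Of 15 tested intracellular S100 targets 5 rose and 1 fell, with a median log2 change of 0.17, where 10.8% of all tested genes were called higher and 9.06% lower. STK38L, a kinase of the NDR family, rose by 1.30 on the log2 scale. PPFIBP1, a liprin that binds S100A4, rose by 0.77. MYH9, the heavy chain of non-muscle myosin and an S100A4 partner, rose to 225 ± 13.8 FPKM at 30 Gy, against 175 ± 4.05 at 0 Gy (SD, n = 2 each), while S100A4 itself did not pass. MDM4, a regulator of p53, fell by 0.43.

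Of 9 tested annexin receptors and partners 4 rose and 1 fell, with a median of 0.33, where 10.8% of all tested genes were called higher and 9.06% lower. The list holds 19 genes of varied function, and PLG, which encodes plasminogen itself, had 0 reads in all 4 libraries. PLAT and PLAU, the tissue-type and urokinase-type plasminogen activators, and PLAUR, the urokinase receptor, rose by 1.33, 1.01 and 1.04 on the log2 scale. PLAU reached 61.6 ± 0.438 FPKM at 30 Gy, against 30.04 ± 1.34 at 0 Gy (SD, n = 2 each). PLA2G4A, the cytosolic phospholipase A2 that annexin A1 inhibits, rose by 0.76. The formyl peptide receptor genes FPR1, FPR2 and FPR3 were not tested.

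Of 16 tested membrane repair genes 2 rose and 2 fell, with a median of -0.05, near the 10.8% and 9.06% of all tested genes. MYOF, a ferlin, fell to 41.2 ± 1.52 FPKM at 30 Gy, against 62.1 ± 2.13 at 0 Gy (SD, n = 2 each), and VPS4B, an ATPase of the ESCRT pathway, fell by 0.27 on the log2 scale. CHMP4B, an ESCRT filament protein, and CAPNS1, the small calpain subunit, rose by 0.46 and 0.39. Of 21 other EF-hand genes 6 rose and 2 fell, with a median of 0.12, where 10.8% of all tested genes were called higher and 9.06% lower. NUCB2 and RCN1, calcium-binding proteins of the secretory pathway, fell by 1.17 and 0.77, and LCP1 (L-plastin) and CALM3 (calmodulin) rose by 0.80 and 0.49. LCP1 passed the filter only through the 30 Gy libraries, where it was higher, so its call supports nothing here. Dropping either 0 Gy library ended all of these calls. A test with no FPKM minimum ended those on FLG, MYH9, MDM4, CHMP4B, CAPNS1, VPS4B, CALM3, LCP1, TPM3, RFX5, DENND4B and IL6R. Of these 12, TPM3 kept its call with 30 Gy replicate 1 dropped and IL6R with either 30 Gy replicate dropped, and the other 10 lost it with either. Further settings ended the calls on FLG (length trend removed, a pseudocount of 0.1, quantile normalization), VPS4B (no variance trend, equal FPKM sums, a pseudocount of 0.1), DENND4B (no variance trend, equal FPKM sums, length trend removed), MYH9 (no variance trend, quantile normalization) and CHMP4B (no variance trend).

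Recovered depth was 15920861 and 15979341 reads in the 30 Gy libraries, against 17261121 and 16773381 in the 0 Gy libraries. Pearson's r of log2(FPKM + 1) across the tested genes, which are not independent replicates, was 0.981 and 0.984 within the 30 Gy and 0 Gy pairs, against 0.956 to 0.958 between groups. Of 8 squamous markers TP63 and PKP1 were tested and neither passed, DSC3 and SOX2 were below the filter, KRT14 had 0 to 4 reads and KRT5, KRT6A and DSG3 had 0 reads in all libraries, so 4 of 8 defining squamous markers were at or near 0. Of 7 fibroblast markers COL1A1 and PDGFRB were tested and neither passed with limma (adjusted p = 0.0795 and 0.0535). voom on the reads called both higher (0.0135 for COL1A1, 0.00121 for PDGFRB), and a limma fit with no variance trend called PDGFRB (0.0205), which passed the filter only through the 30 Gy libraries. The summed FPKM of that list was 78.8 and 72.6 in the 30 Gy libraries, against 62.9 and 63.2 in the 0 Gy libraries, DCN was at 0 reads, and the part of this list in the results was not tested. In bulk RNA, fewer cells expressing a gene and less RNA per cell cannot be told apart.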

How the data were processed

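RNA sequencing of 4 libraries, 2 at 30 Gy and 2 at 0 Gy, gave a single table in which the authors deposited FPKM values per gene, with gene names, positions and lengths. Per the submitters' processing notes, hg38 was used; no source used here names the aligner, the counter or the annotation. All 36 members matched GENCODE 29 in identifier and position. Multiplying FPKM by gene length gave whole multiples of 1 read for 100% of values above 0 (tolerance 0.001), hence reads per gene; with voom these called 4178 of 13379 genes.

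The 13379 genes reaching FPKM 1 in 2 or more libraries entered limma 3.58.1 (R 4.3.3; lmFit, eBayes with trend, two-sided, no covariate) on log2(FPKM + 1), with Benjamini-Hochberg adjustment at 0.05 and 2 residual degrees of freedom. Fold changes on this scale are understated for low genes; ratios are of mean FPKM. The fit was tried on simulated reads with a fixed spread and few changed genes, which gives no error rate for these libraries. Replicates were no copies (mean chi-square per gene 5.76 at 30 Gy and 6.41 at 0 Gy). The members and lists were chosen with earlier results of these data known. Every member was named, with up to 4 called genes per related list and up to 6 neighbours, those of largest change. BSG, AGER, TLR4, TCHH, the FPR genes, PLG and ANXA2P2 were named after their values were seen. Alternatives were other pseudocounts, filters, scalings and variance settings, the replicate number as a block, and omission of each library. A count model planned with another tool was not run on this FPKM table, and voom on the recovered reads was used instead.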

Additional observations from a re-analysis of the deposited data

How the results depend on the processing

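Calls and directions were recomputed under 15 other settings, 13 planned and 2 added after the data were seen (voom on recovered reads and removal of the trend on gene length). The 6 members called higher kept their direction in every setting in which they were tested. Of these, ANXA8L1 passed the main filter only through the libraries in which it was higher, so its direction supports nothing here. All settings draw on the same libraries, so a kept direction is no separate result. With no FPKM minimum, limma called 604 genes, 3 members higher and 1 S100 gene higher; a filter at FPKM 5, under which ANXA8 and ANXA8L1 were not tested, called 1 annexin higher; voom called 4178 genes and 1 member lower, the annexin gene ANXA1. Leaving out 1 library at a time gave 0 to 898 genes, 0 to 3 members higher, 0 to 1 S100 genes higher and 0 to 2 annexins higher; the cause was not tested, beyond the fewer libraries. Of members that did not pass, ANXA4 changed sign to 0.0050 with the length trend removed, and with a library left out the log2 change ran from -0.34 to 0.082 for S100A6, -0.081 to 0.37 for S100A2, -0.024 to 0.60 for S100A3, -0.077 to 0.044 for ANXA4, -0.078 to 0.43 for ANXA9 and -0.31 to 0.46 for ANXA2R. Replicate numbers did not pair the samples (correlation of same-numbered deviations -0.026); with a replicate block 1926 genes were called in all and 4 members were called higher, without S100A11 (adjusted p = 0.0757) and ANXA8L1 (0.0543). The block also ended the calls on FLG, MYH9, MDM4, CHMP4B, VPS4B, LCP1, RFX5 and DENND4B. The planned fits with a count model were not run. Depth limits the genes at 0 to 5 reads, and 2 libraries per group limit all the rest.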
